A study of Mus musculus with 39 samples.

Results

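The comparison described here is the step from the 4-cell to the 8-cell stage in untreated mouse embryos. It sets the 3 untreated 8-cell arrays against the 3 untreated 4-cell arrays, which are 6 of the 39 arrays of the series and 6 of its 24 untreated arrays. All embryos were made by in vitro fertilization of eggs from B6D2F1 females, the offspring of a C57BL/6 by DBA/2 cross, with sperm from ICR males, and were cultured in human tubal fluid medium with albumin. Both donors were adult mice. The 4-cell embryos were collected 48 h after insemination, whereas the labels give the 8-cell embryos by stage only. Each array was hybridized with the labelled RNA of 100 pooled embryos, so a value is a mean over many blastomeres, and embryos from 1 pool are not separate replicates. Neither stage received an inhibitor, and the arrays of inhibitor-treated embryos were not used. The series itself asked how inhibitors of histone deacetylases change the transcriptome of early embryos, and the untreated stages gave the normal course of development. The comparison was defined by stage labels alone, so every gene on the array could be tested.

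During the later stage the mouse embryo passes from loose, round blastomeres to cells that flatten against each other, a change called compaction. Adhesion through E-cadherin, the building of apical and basal domains and the first junctions accompany it, and signalling through the Hippo pathway then separates outer cells, which form trophectoderm, from inner cells, which form the inner cell mass. Major activation of the embryonic genome has already taken place at the 2-cell stage, and RNA left from the oocyte is still being lost. The labels do not say whether the embryos collected at the later stage had compacted, so the arrays cannot be placed before or after compaction.

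Levels are given as log2 signal after each array was scaled to its 75th percentile. They can be compared between arrays for 1 gene but not between genes, since every probe has its own brightness. The difference between stages, 8-cell minus 4-cell, is called LFC (log2 fold change). The amount of RNA per embryo was not measured, since every array carries the same amount of labelled RNA. Since each array holds RNA of pooled whole embryos, fewer cells that express a gene and less RNA of it per cell cannot be told apart. The labels number the samples as replicates and the methods describe 3 independent samples, so the p-values measure the spread between these pools of embryos.

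On the 6 arrays, 44.4 to 48.1% of spots were well above background and none was saturated. The 5 blastomere markers Pou5f1, Tfap2c, Klf17, Nr5a2 and Dppa3 were above background on all 6 arrays. Of 10 markers of cumulus and granulosa cells, which surround the egg, 9 were dim on all 6 arrays, and the exception was Foxl2. Their summed linear signal, nearly all Foxl2, was 19100 to 23500 at the 4-cell stage and 21100 to 34100 at the 8-cell stage. Of 9 sperm markers, Prm2 and Odf2 were bright on all 6 arrays, and the sums were 2410 to 2810 and 2050 to 2280. Among 6 blood markers Hba-a1 and Cd68 were bright on all 6 arrays, and the sums were 869 to 960 and 894 to 1310. None of the markers of these 3 cell types that were bright enough to be tested was called by limma, and Odf2 was the sole one with an unadjusted p below 0.05 (LFC -0.37, adjusted p = 0.0704).

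Of 15740 genes tested, 2364 (15.0%) differed between the stages, which means here that the LFC was 1 or more in either direction and that limma gave a Benjamini-Hochberg adjusted p below 0.05. At the 8-cell stage 1079 genes (6.86%) were higher and 1285 (8.16%) were lower, so 45.6% of the calls were rises. With the 75th percentile taken over probes positive and significant on all 6 arrays, 898 were higher and 1452 lower (38.2% rises). Another background correction, normexp with an offset of 50, called 916 genes (459 higher, 457 lower) and kept 899 of the 2364 calls. In the table of log2 values that the authors normalized, which holds fewer probes, 748 of 10829 genes were higher and 559 lower (57.2% rises). The authors retained only probes detected in every condition, so this is a different set of genes. Of the 2364 calls, 1282 could be tested in that table and 1131 were kept. The median LFC over all genes tested was 0.04. In each of the 2364 genes the 3 arrays of 1 stage lay wholly above the 3 of the other, which the call itself nearly requires. Over all genes tested, 8331 of 15740 did not overlap. Such a gene must have the same sign on each of the 3 slides, every slide holding 1 array of either stage. Within all 3 slides the difference was at least 1 in size for 1279 of the 2364. Among the genes called higher, 217 were not well above background on any 4-cell array, and among those called lower 282 were not well above background on any 8-cell array. For such genes a fold change is given only as a lower bound.

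The median SE of the LFC was 0.181, and the median SD over the 3 arrays of a stage was 0.179 at 4-cell and 0.232 at 8-cell. Arrays of the same stage correlated at 0.985 to 0.988 across genes, and arrays of different stages at 0.956 to 0.971. Genes are not independent replicates, so these correlations only describe the arrays. Among the 3 8-cell arrays, replicate 2 was the highest for 698 of the 1079 genes called higher and the lowest for 735 of the 1285 called lower. Without it 1870 genes passed, 839 higher and 1031 lower.

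**Figure D1:**
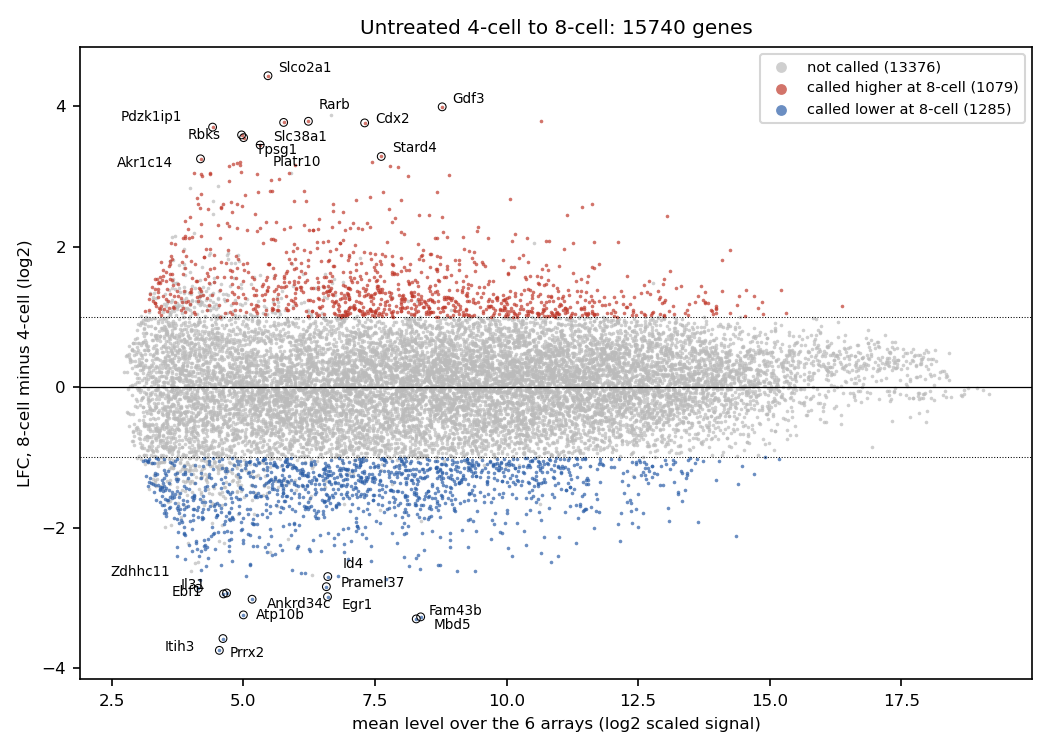
Difference between stages (LFC, 8-cell minus 4-cell, y axis) against the mean log2 signal over the 6 arrays (x axis) for 15740 genes, 1 point a gene, with called genes in colour. The 1079 genes called higher and the 1285 called lower spread over most of the range of signal outside the dotted lines at an LFC of 1 and -1. Named genes are circled. Slco2a1, at 4.44, and Prrx2, at -3.75, were dim at 1 stage, so the height of their points is not an exact fold.

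Slco2a1, which carries prostaglandins across the cell membrane, was called higher, and its fitted LFC depends on values near background. Its log2 level was 3.65, 2.85 and 3.26 on the 4-cell arrays, none of them well above background, and 7.43, 8.20 and 7.44 on the 8-cell arrays (LFC 4.44 ± 0.295 SE, adjusted p = 0.00211). The transcript was therefore well above background at the later stage alone, at least 8.5-fold higher. Cdx2, the homeobox factor that defines trophectoderm, rose 13.6-fold, from 5.14, 5.57 and 5.56 to 8.64, 9.95 and 8.97 (LFC 3.77 ± 0.35 SE, adjusted p = 0.00308).

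Rarb, a nuclear receptor for retinoic acid, rose from 3.69, 4.70 and 4.65 to 8.00, 8.88 and 7.52 and was at least 10.2-fold higher. Its mean had been 8.11 at the 2-cell stage and was 8.13 at the 8-cell stage, so it returned to an earlier level. Slc38a1, a carrier of glutamine and other neutral amino acids, was at least 7.3-fold higher. Stard4, which moves cholesterol between membranes, rose 9.76-fold, from 5.64, 6.40 and 5.89 to 9.08, 9.68 and 9.03, and a second probe gave a similar LFC of 3.25. Smaller lower bounds applied to genes that were dim on every 4-cell array. They were 5.44-fold for the noncoding RNA Platr10, 4.54-fold for the tryptase Tpsg1, 4.48-fold for the ribokinase Rbks, 3.18-fold for Pdzk1ip1, a small membrane protein, and 2.32-fold for Akr1c14, a hydroxysteroid dehydrogenase. Pdzk1ip1 has a second probe, dim, with an LFC of 0.28. Stard4 and Rbks had also stood higher in oocytes. The mean of Stard4 was 10.52 in MII oocytes and 9.26 in 8-cell embryos, and that of Rbks 8.83 in germinal vesicle oocytes and 6.765 in 8-cell embryos. Apart from Rarb, the other genes of this paragraph had higher means at the 8-cell stage than at any earlier one.

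Gdf3, a ligand of the TGF-beta family, was well above background at both stages, and its call depended on the probe. The brighter of its probes rose from 6.40, 6.96 and 6.98 to 10.59, 11.29 and 10.45 (15.9-fold, adjusted p = 0.00211), whereas the second probe had an LFC of 0.58. When 8-cell replicate 1, 2 or 3 was left out, the second probe became the brighter one and the LFC was 0.61, 0.59 and 0.53, with adjusted p of 0.0615, 0.081 and 0.0827.

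Prrx2, a paired-type homeobox gene, was called lower. Its level was 6.75, 6.34 and 6.18 at the 4-cell stage and 2.94, 2.67 and 2.41 at the 8-cell stage, where no array was well above background (LFC -3.75 ± 0.209 SE, adjusted p = 0.00211). It was at least 3.45-fold lower. Falls that could be measured at both stages were those of Fam43b, from 10.43, 9.80 and 9.58 to 7.12, 5.62 and 7.17 (9.85-fold), and of Mbd5, of the family of methyl-CpG-binding proteins, from 9.78, 10.08 and 10.16 to 6.48, 6.90 and 6.82 (9.65-fold). Other probes of Mbd5 had an LFC of -0.25 and -1.02, so the probes of this gene disagreed in size.

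Egr1, an immediate early factor that serum and growth factors induce, fell from 8.19, 7.96 and 8.12 to 4.85, 4.80 and 5.68 (LFC -2.98 ± 0.257 SE, adjusted p = 0.00289). Id4, which blocks helix-loop-helix factors, fell from 8.17, 8.08 and 7.61 to 5.38, 4.71 and 5.68 (adjusted p = 0.00368). Egr1 was well above background on 1 of the 3 8-cell arrays and Id4 on 2 of them, so both LFC values depend partly on values near background. Ebf1, known from B cells, was at least 2.76-fold lower. Neither Egr1 nor Id4 overlapped between the stages, which the choice of these genes required. Further genes were dim on all 8-cell arrays and had lower bounds of 3.98-fold for the lipid flippase Atp10b, 3.42-fold for Itih3, which stabilizes hyaluronan matrix, 2.86-fold for the cytokine Il31 and 1.93-fold for Zdhhc11, of the family of palmitoyltransferases.

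Pramel37, of a gene family expressed in germ cells and early embryos, fell from 9.07, 7.78 and 7.15 to 5.67, 4.64 and 5.16. It was well above background on 2 of the 3 8-cell arrays, and its second probe had an LFC of -1.76. Ankrd34c fell by 3.02 on the log2 scale with an adjusted p of 0.0264. Its 8-cell values of 3.07, 2.49 and 5.41 were widely spread, and only 1 of them was well above background. Leaving out any array other than 8-cell replicate 3 ended the call, with an adjusted p of up to 0.0814.

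**Figure D2:**
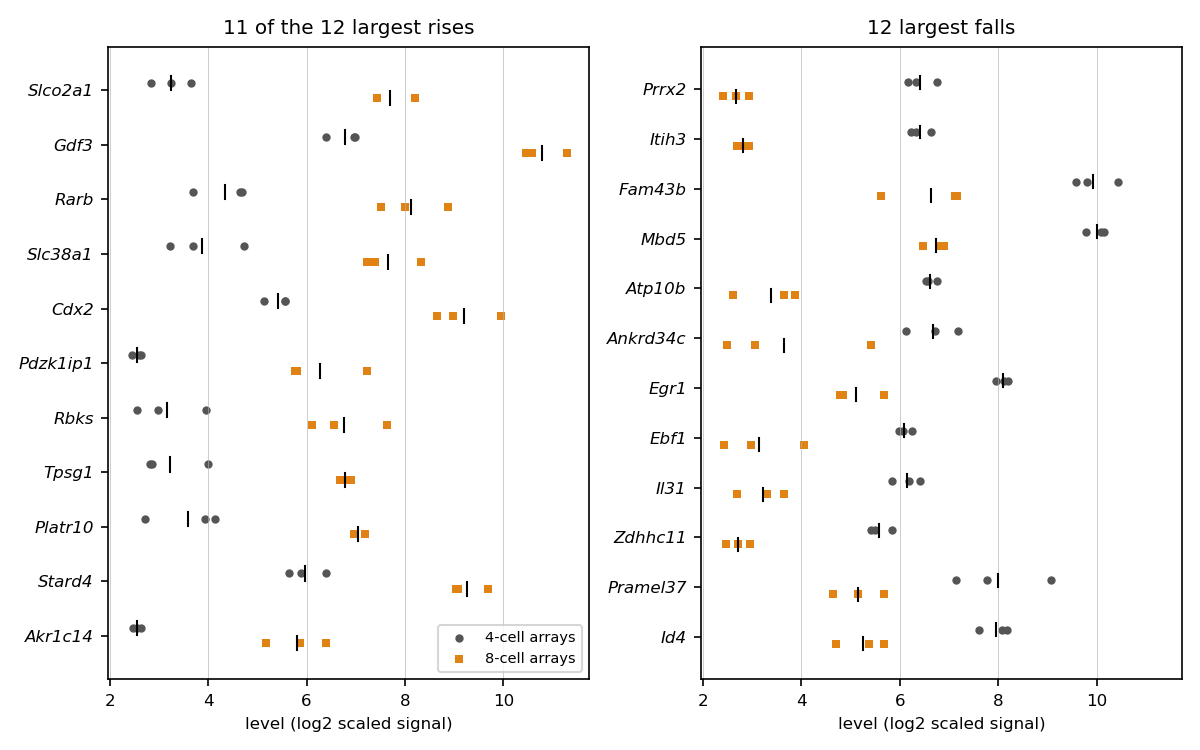
Log2 signal (x axis) of 11 of the 12 largest rises and of the 12 largest falls, ranked by fitted LFC, on each of the 6 arrays, 1 row a gene, with circles for 4-cell arrays, squares for 8-cell arrays and a bar at the mean of each stage. The genes were chosen so that the 3 arrays of 1 stage lie on the same side of the 3 of the other. In 10 of the 11 rises shown, 8-cell replicate 2 is the highest 8-cell array.

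The promoters of Slco2a1, of the trophectoderm factor Cdx2 and of Prrx2 are shown to let their sequence be read beside these changes. They run from 250 bases before to 50 bases after the start of the gene, 5′ to 3′ on the gene's own strand, from RefSeq on GRCm38.p6, with capitals for matches on either strand to the 10 motifs spelled out after them. They lie at chr9:103008237-103008536 on the plus strand for Slco2a1, at chr5:147307200-147307499 on the minus strand for Cdx2 and at chr2:30845117-30845416 on the plus strand for Prrx2.
Slco2a1: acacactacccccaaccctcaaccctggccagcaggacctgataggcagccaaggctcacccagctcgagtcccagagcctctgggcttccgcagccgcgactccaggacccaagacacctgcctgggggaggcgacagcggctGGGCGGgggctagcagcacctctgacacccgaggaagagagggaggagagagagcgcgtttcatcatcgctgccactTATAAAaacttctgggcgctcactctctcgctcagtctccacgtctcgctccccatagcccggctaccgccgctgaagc
Cdx2: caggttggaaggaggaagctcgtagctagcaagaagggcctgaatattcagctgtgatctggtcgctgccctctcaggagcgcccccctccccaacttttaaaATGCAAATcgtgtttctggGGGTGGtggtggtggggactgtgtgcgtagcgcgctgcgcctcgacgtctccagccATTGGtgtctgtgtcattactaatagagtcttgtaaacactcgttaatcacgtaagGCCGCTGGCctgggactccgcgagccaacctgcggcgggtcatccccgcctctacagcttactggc
Prrx2: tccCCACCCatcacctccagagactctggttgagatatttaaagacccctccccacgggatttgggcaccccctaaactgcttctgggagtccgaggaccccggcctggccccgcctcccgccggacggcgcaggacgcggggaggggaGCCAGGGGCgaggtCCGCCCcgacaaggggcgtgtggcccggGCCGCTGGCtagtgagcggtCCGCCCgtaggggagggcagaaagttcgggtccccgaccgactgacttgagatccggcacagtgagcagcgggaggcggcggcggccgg

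Of the 10 motifs, Slco2a1 holds a GC box and a TATA box, Cdx2 holds the octamer, KLF, NFY and TFAP2 motifs, and Prrx2 holds KLF, GC box and TFAP2 motifs. The shares that follow are of promoters with a match, always in the order of genes called higher (1077 promoters of 856 genes), genes called lower (1258 of 994) and all genes tested (15516 of 12393). The octamer, searched as ATTTGCAT, was the rarest, with shares of 1.49, 1.99 and 1.36%. TEAD factors, the partners of YAP1, were given the letters GGAATG, which stood in 15.4, 13 and 12.9%. For the ETS family the search used CCGGAAG and the shares were 12.6, 7.71 and 15.0%. Among the motifs of GC-rich promoters, the GC box was taken as GGGCGG and was found in 55.8, 50.4 and 55.4%. A match to CCACCC, bound by KLF factors, was present in 37.4, 39.3 and 36.3%. TFAP2 factors were given GCCNNNGGC, with shares of 23, 22.8 and 23%, and this pattern can overlap the GC box. The NFY motif, or CCAAT box, occurred in 35.6, 40.4 and 37.8%. A TATA box with the letters TATAAA was there in 9.19, 11.2 and 8.96%, and an E-box with the letters CACGTG in 8.36, 7.23 and 9.24%. The OBOX motif was read as GGATTA and was found in 5.85, 7 and 6.12%. A match is a run of letters and says nothing of binding, and no test was made.

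In the list of desmosome, gap junction and keratin genes, 7 of 14 tested members were higher and 2 lower, with a median LFC of 1.07. Over all genes tested, 6.86% were higher and 8.16% lower. The median of the list was 0.38 without 8-cell replicate 2. Its number of lower members was 0 without 4-cell replicate 2 and 1 without 4-cell replicate 1 or 3 or 8-cell replicate 2 or 3. Krt8, which forms keratin filaments, rose from 7.70, 7.74 and 7.07 to 9.02, 9.82 and 9.10 (LFC 1.81 ± 0.288 SE, adjusted p = 0.00723), and its partner Krt18 rose from 9.52, 10.22 and 9.25 to 11.30, 11.65 and 10.78 (LFC 1.58 ± 0.324 SE, adjusted p = 0.0144). Without 4-cell replicate 1, the adjusted p of Krt18 was 0.0511. Krt7 had an LFC of 1.86 but was bright on 1 of the 3 8-cell arrays and on no 4-cell array, so no fold is given.

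Gap junctions join the cytoplasm of neighbouring blastomeres. The connexin Gja1 rose from 10.38, 10.20 and 10.50 to 11.52, 11.51 and 11.40 (2.17-fold, adjusted p = 0.00387). Gjc1 fell by 1.08 on the log2 scale, and without 4-cell replicate 2 its LFC was -0.95. Gjb2 was called lower but was dim on all 6 arrays. The desmosomal plaque gene Pkp2 rose from 7.24, 7.01 and 7.10 to 8.60, 9.08 and 8.50 (3.04-fold, adjusted p = 0.00392). Dsp, which links that plaque to keratin, had an LFC of 1.05 with an adjusted p of 0.0424, and it lost the call when any of the 6 arrays was left out, with an adjusted p of up to 0.121. Jup, Dsg2, Dsc2, Pkp1 and Gjb5 were among the members that were too dim to be tested.

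Tight junctions seal the outer cells, and 3 of 13 members of that list were higher and none lower (median LFC 0.40, and 0.25 without 8-cell replicate 2). The higher members are 23.1% of the list, against 6.86% of all genes tested. The claudin Cldn4 rose from 10.08, 9.85 and 9.39 to 11.14, 11.82 and 11.13 (3.01-fold, adjusted p = 0.00823), and its second probe gave an LFC of 1.68. Cldn7 rose from 12.43, 12.49 and 12.24 to 13.54, 13.87 and 13.39 (2.32-fold, adjusted p = 0.00501). The arrays of the stages did not overlap for either claudin. Marveld2, a component of tricellular junctions, rose by an LFC of 1.13 (adjusted p = 0.0086), which was 0.97 without 4-cell replicate 1. The scaffold Tjp1 had an LFC of 0.20 (adjusted p = 0.278) and overlapped between the stages.

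In the list of adherens junction and compaction genes 1 of 18 was higher and none was lower (median LFC 0.11), a share of 5.56% that is near the 6.86% of all genes. That member, the non-muscle myosin Myh10, rose from 7.56, 7.45 and 7.77 to 8.96, 9.26 and 8.89 (2.72-fold, adjusted p = 0.00373). Cdh1, which encodes E-cadherin, stood at 11.15, 11.48 and 11.63 at the 4-cell stage and at 11.72, 12.32 and 11.89 at the 8-cell stage (LFC 0.55 ± 0.21 SE, adjusted p = 0.0853). Its arrays did not overlap, but the difference did not pass the test. Ctnnb1, the beta-catenin bound to E-cadherin, had an LFC of 0.13 (adjusted p = 0.59). Among 18 polarity genes none was higher and 1 (5.56%) was lower, against 8.16% of all genes tested (median LFC -0.15). Llgl2, a basolateral polarity protein, fell from 12.98, 13.04 and 12.99 to 11.85, 11.92 and 11.96 (2.13-fold, adjusted p = 0.00328). Ezr, the apical linker ezrin, had an LFC of 0.30 (adjusted p = 0.338).

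Hippo signalling restrains YAP1, the partner of the TEAD factors, in inner cells. Of 21 tested members of this list 4 (19%) were higher, against 6.86% of all genes tested, and none was lower. The median LFC of the list was 0.42, or 0.14 over the 18 members bright on all 6 arrays. The kinase Lats2, which inactivates YAP1, rose from 8.44, 9.10 and 9.22 to 10.36, 10.52 and 10.29 (2.77-fold, adjusted p = 0.00677). The upstream kinase Stk4 rose 2.45-fold (adjusted p = 0.00584), with LFC 0.67 at a second probe. Ccn2, a familiar target of YAP1, rose from 8.09, 8.96 and 9.13 to 10.40, 9.93 and 11.02 (LFC 1.73 ± 0.376 SE, adjusted p = 0.0171). Tead3 was dim on every 4-cell array and at least 1.83-fold higher. It lost the call without 4-cell replicate 1, 4-cell replicate 2 or 8-cell replicate 2, with adjusted p of 0.0671, 0.0713 and 0.0618. Neither Yap1, at an LFC of -0.23 (adjusted p = 0.152), nor Tead4, at 0.29 (adjusted p = 0.299), passed the test. Nf2, an upstream activator of the pathway, had an LFC of -0.81 (adjusted p = 0.011), which is under the minimum size.

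The trophectoderm list had 5 of 19 tested members higher (26.3%) and 2 lower (10.5%), with a median LFC of 0.50. Among all genes tested these shares were 6.86 and 8.16%. The number of lower members was 4 without 8-cell replicate 3 and 1 without any other array. The rises were those of Cdx2, the keratins Krt7, Krt8 and Krt18, and the endocytic receptor Lrp2, which was dim at the 4-cell stage and at least 1.24-fold higher. These keratins are also counted in the desmosome, gap junction and keratin list, and Lrp2 among the lysosomal genes below. Gata3, a factor that acts beside Cdx2, stood at 8.47, 8.68 and 8.44 and then at 9.27, 9.81 and 9.38. Its LFC of 0.96 ± 0.177 SE (adjusted p = 0.0107) lay just under the minimum of 1, and without 8-cell replicate 1 it was 1.07. The summed linear signal of the 4 markers Cdx2, Gata3, Krt8 and Krt18 was 1140 to 1860 on the 4-cell arrays and 3470 to 6000 on the 8-cell arrays. In contrast Gata2, which pairs with Gata3 in later trophoblast, fell from 5.36, 5.11 and 4.90 to 3.02, 2.58 and 2.41, where it was dim, and was at least 1.4-fold lower (adjusted p = 0.00268). Dppa1 was called lower while dim on all 6 arrays. Eomes had an LFC of -0.82 (adjusted p = 0.0328).

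Pluripotency genes of the inner cell mass had 6 of 22 tested members higher (27.3%) and 2 lower (9.09%), with a median LFC of 0.53. All genes tested had 6.86% higher and 8.16% lower. Within the list, Tfcp2l1, a factor of the naive pluripotent state, rose most, from 7.15, 7.51 and 7.24 to 9.70, 10.78 and 9.75 (6.85-fold, adjusted p = 0.00383), and its second probe had an LFC of 4.19. Pou5f1, which encodes OCT4, rose from 12.45, 12.60 and 12.71 to 13.97, 14.27 and 13.84 (2.72-fold, adjusted p = 0.00373). The chromatin factor Utf1 rose from 9.93, 9.79 and 9.53 to 11.28, 11.10 and 11.02 (2.61-fold, adjusted p = 0.00374). For these 3 genes every 8-cell array was above every 4-cell array by more than the spread within a stage.

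Nanog, the homeobox factor of the epiblast, rose from 7.37, 7.68 and 7.82 to 8.62, 8.94 and 8.71 (2.2-fold, adjusted p = 0.00579), but its second probe had an LFC of -0.51, so its direction depended on the probe. Lin28b and Zfp42 rose by an LFC of 1.02 and 1.01, close to the minimum, and a second, dimmer probe of Lin28b had an LFC of -0.63. Lin28b lost the call without 4-cell replicate 1, 4-cell replicate 2 or 8-cell replicate 2, and Zfp42 without 4-cell replicate 2, 4-cell replicate 3, 8-cell replicate 1 or 8-cell replicate 2, where its LFC was 0.95 to 0.99. Klf17 fell from 14.61, 14.68 and 14.61 to 13.66, 12.90 and 13.37 (2.49-fold, adjusted p = 0.00683; second probe -1.39). Fgf4, the ligand by which epiblast cells act on primitive endoderm, fell from 12.32, 12.10 and 11.97 to 10.97, 10.62 and 10.75 (2.56-fold, adjusted p = 0.00387). Esrrb, a further factor of the naive state, had an LFC of 0.90 (adjusted p = 0.0223), and Sox2 was too dim to be tested.

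Primitive endoderm is the second lineage of the inner cell mass, and 3 of 9 tested members of its list were higher and none lower (median LFC 0.67, and 0.35 without 4-cell replicate 3). The higher members are 33.3% of this short list, against 6.86% of all genes tested. Gata6, the factor that opens this fate, rose from 11.82, 11.74 and 11.88 to 14.36, 14.41 and 14.02 (5.45-fold, LFC 2.45 ± 0.145 SE, adjusted p = 0.00211). The spread within each stage was small beside this difference. The basement membrane collagens Col4a1 and Col4a2 were dim on all 4-cell arrays and at least 1.82-fold and 2.32-fold higher. Col4a2 kept its call only without 8-cell replicate 3, and in the other 5 fits with 1 array left out the adjusted p was 0.055 to 0.0658. Gata4 had an LFC of -0.29 (adjusted p = 0.113), and Sox17, Sox7 and Foxa2 were too dim to be tested.

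In the list of signalling ligands and receptors, 4 of 39 tested members (10.3%) were higher and 9 (23.1%) lower, with a median LFC of 0. The share of higher members is not far from the 6.86% of all genes tested, of which 8.16% were lower. Bmp2, a ligand of the BMP branch, rose from 4.59, 5.002 and 4.32 to 7.28, 7.23 and 6.18 (LFC 2.26, adjusted p = 0.00637). The 4-cell values of Bmp2 were near background, so no exact fold is given. The receptor kinase Erbb2 rose 2.48-fold (adjusted p = 0.00328). Bmp7 rose by an LFC of 1.11 (adjusted p = 0.0351), a call that was lost without 4-cell replicate 1 or 2 or 8-cell replicate 2 or 3 (adjusted p 0.0728 to 0.106). Fgf1 fell from 13.87, 13.75 and 14.14 to 12.12, 11.96 and 12.51 (3.31-fold, adjusted p = 0.00374). Kitl, the ligand of the receptor Kit, fell from 7.43, 6.99 and 6.95 to 5.63, 5.81 and 5.36 (2.87-fold), and Kit itself fell 2.52-fold (adjusted p = 0.0158). Without 4-cell replicate 1 or 3 the adjusted p of Kit was 0.0542 and 0.0525. Hbegf, a ligand of the EGF receptor, fell 2.65-fold (adjusted p = 0.00392), and Egfr was called lower but was dim on all 6 arrays, with an LFC of 0.28 at a second probe.

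The receptor pair for leukemia inhibitory factor, Lifr and Il6st, had LFC values of -2.16 and -1.53, with adjusted p of 0.0303 and 0.0269. Lifr lost the call without 4-cell replicate 2 or 3 or 8-cell replicate 1 or 3 (adjusted p 0.0579 to 0.087), and also when the replicate number was fitted as a block. Il6st lost it without 4-cell replicate 1 or 3 or 8-cell replicate 2 or 3 (adjusted p 0.0662 to 0.0822). Fzd7, a Wnt receptor, had an LFC of -2.14 (adjusted p = 0.0205), and of -1.96 at a second, dimmer probe. It lost the call without any 1 of the 4-cell arrays or without 8-cell replicate 2 (adjusted p 0.0534 to 0.0643). The number of lower members of this list was 4 without 4-cell replicate 3 and 5 without 4-cell replicate 1. Without 8-cell replicate 2 or 3, 2 members were higher.

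Most genes of the 2-cell wave of genome activation fell. Of 23 tested members 15 were lower and none was higher, 21 had a negative LFC, and the median LFC was -1.37, while 8.16% of all genes tested were lower. Near-identical copies are common in these families, so a probe may report several of them. Spz1 fell from 10.65, 10.68 and 10.68 to 8.81, 8.58 and 8.93 (3.72-fold, adjusted p = 0.00211), and the deubiquitinase Usp17ld fell from 9.54, 9.53 and 9.44 to 7.92, 7.81 and 7.68 (3.26-fold, adjusted p = 0.00211). The 4-cell replicates of both genes nearly coincided. The homeobox genes Obox3 and Obox5, of a family that takes part in genome activation, fell from 11.35, 11.30 and 11.44 to 10.34, 9.91 and 9.91 and from 9.55, 9.53 and 9.56 to 8.36, 7.74 and 7.87. By contrast Obox6 stood at 16.02, 16.08 and 15.98 and then at 16.53, 16.54 and 16.40 (LFC 0.46, adjusted p = 0.023).

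Zscan4e, of the cluster that marks the 2-cell state, went from 11.90, 11.53 and 11.57 to 11.07, 9.83 and 10.01 (LFC -1.37 ± 0.34 SE, adjusted p = 0.025). The first 8-cell array stayed well above the other two. Zscan4e and Zscan4f kept the call in 1 of the 6 fits with 1 array left out, that without 8-cell replicate 1, with an adjusted p of up to 0.0782 and 0.0776. Zscan4a kept it in 1 fit as well, that without 4-cell replicate 3 (adjusted p of up to 0.103), and lost it with the replicate number as a block. Usp17la fell at its brighter probe (LFC -1.67, adjusted p = 0.00625) and had an LFC of 0.01 at the second. Tcstv1, Tcstv3, Tdpoz1, Tdpoz3, Usp17lb, Usp17lc and Arg2 made up the rest of the 15. Zfp352 had an LFC of -0.74 (adjusted p = 0.0128), under the minimum size.

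Oocyte and maternal genes had 10 of 42 tested members lower (23.8%, against 8.16% of all genes tested) and 1 higher. Of the 42, 38 had a negative LFC (median -0.84). The mRNA decay adaptor Btg4, which helps clear maternal RNA, fell from 9.68, 9.86 and 10.08 to 8.09, 8.06 and 8.24 (3.35-fold, adjusted p = 0.00264). Bcl2l10, a survival factor of the egg, fell from 9.59, 9.70 and 9.84 to 8.67, 8.32 and 8.01 (2.6-fold, adjusted p = 0.00528), and Zar1l fell 2.59-fold (adjusted p = 0.00681). The ligands Gdf9 and Bmp15 had LFC values of -0.88 and -0.93 with adjusted p of 0.00647 and 0.00449, just under the minimum size. On the linear scale the 5 oocyte markers Zp1, Zp2, Zp3, Gdf9 and Bmp15 summed to 9660 to 10600 on the 4-cell arrays and to 5680 to 7510 on the 8-cell arrays.

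The exception in this list was Khdc3, of the subcortical maternal complex. It rose from 12.36, 12.34 and 11.98 to 13.97, 14.13 and 13.19 (2.9-fold, adjusted p = 0.00965). The number of lower members was 7 without 4-cell replicate 1 and 15 without 8-cell replicate 1.

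**Figure D3:**
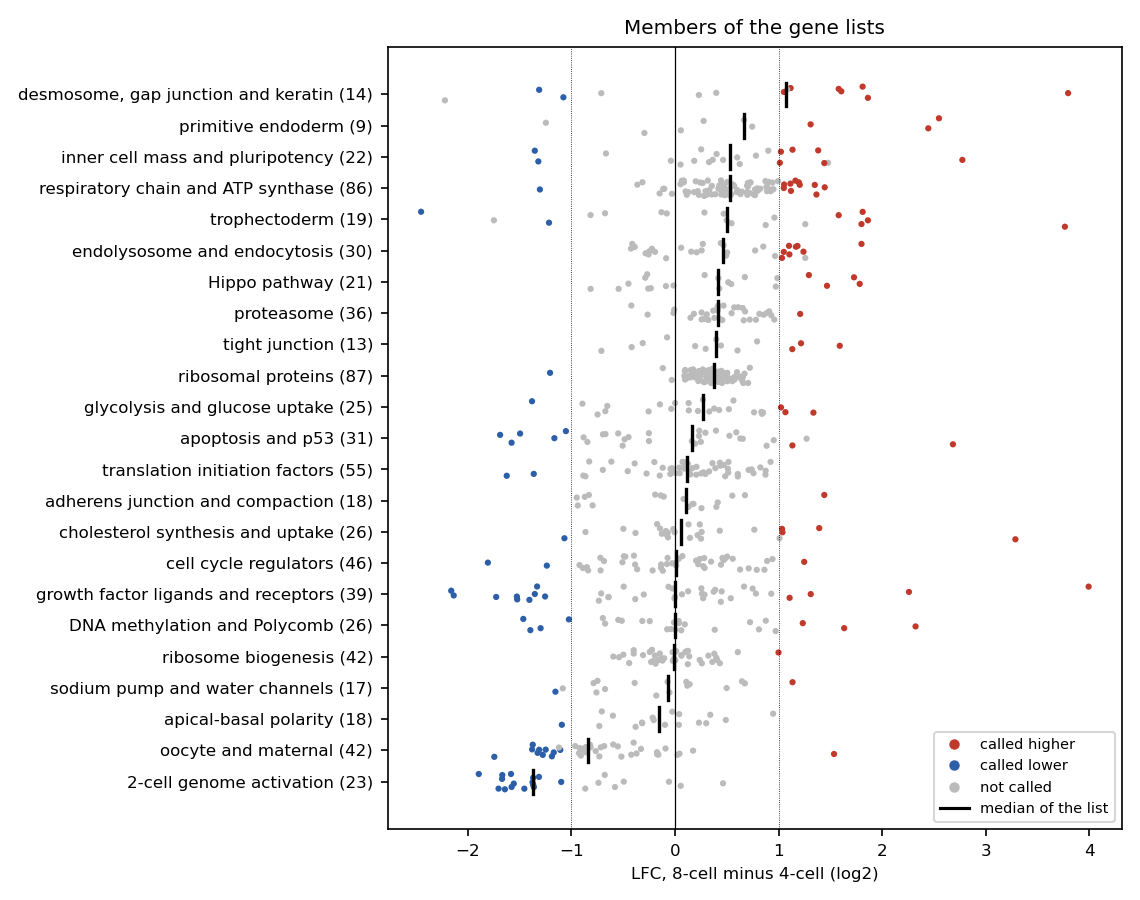
LFC (8-cell minus 4-cell, x axis) of every tested member of each gene list, 1 row a list and 1 point a gene, with called members in colour, a bar at the median of the list and dotted lines at an LFC of 1 and -1. The numbers of members tested stand in brackets, and the median of all genes tested was 0.04. The lists of 2-cell activation and of oocyte genes lie mostly below 0, at medians of -1.37 and -0.84, and the desmosome, gap junction and keratin list has a median of 1.07, which was 0.38 without 8-cell replicate 2.

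Genes of energy supply stood slightly higher as a group. In the respiratory chain and ATP synthase list 10 of 86 (11.6%) were higher, against 6.86% of all genes tested, and 1 was lower. Of the 86, 79 had a positive LFC and the median was 0.53. Ndufc2, a subunit of complex I, rose from 10.91, 10.71 and 10.59 to 12.10, 12.28 and 11.93 (2.58-fold, adjusted p = 0.00374), and Atp5g2, of the proton ring of the ATP synthase, rose 2.72-fold (adjusted p = 0.00387). Cox6a2, a muscle form of a cytochrome oxidase subunit, was lower. It was dim on all 8-cell arrays and at least 1.51-fold lower, and it lost the call without 8-cell replicate 3 (LFC -0.92) or any 4-cell array. The count of higher members was 6 without 8-cell replicate 2 and 16 without 8-cell replicate 3.

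In glucose metabolism 3 of 25 (12%) were higher and 1 (4%) lower, against 6.86 and 8.16% of all genes tested (median LFC 0.27). Without 4-cell replicate 2 or 8-cell replicate 2, and also under quantile normalization, 1 was higher and 1 lower, and without 8-cell replicate 1, 3 were higher and 3 lower (median 0.15). Pdha1, of the pyruvate dehydrogenase complex, rose from 11.56, 11.38 and 11.63 to 12.69, 12.56 and 12.51 (2.1-fold, adjusted p = 0.00402), and Pdk1, a kinase that inhibits that complex, fell from 7.51, 7.11 and 7.44 to 5.99, 5.60 and 6.33 (2.6-fold, adjusted p = 0.00733). Without 4-cell replicate 2 the LFC of Pdha1 was 0.99. The glucose carrier Slc2a8 rose 2.03-fold (adjusted p = 0.0104), an LFC that was 0.98 without 4-cell replicate 3 and 0.85 without 8-cell replicate 2. The lactate and pyruvate carrier Slc16a1 rose 2.53-fold (adjusted p = 0.0301) and kept that call only without 4-cell replicate 3.

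Lysosomal genes had 8 of 30 members higher (26.7%, against 6.86% of all genes tested) and none lower. Their median LFC was 0.46, and 0.22 under quantile normalization. Hexa, an enzyme of glycolipid breakdown, rose from 9.27, 9.18 and 9.17 to 10.78, 10.65 and 9.91 (2.36-fold, adjusted p = 0.0125). The protease Ctsd and the saposin precursor Psap rose 2.15-fold and 2.07-fold, and without 8-cell replicate 1 their LFC was 0.99 and 0.94. Cd9, a tetraspanin of the cell surface, rose 2.25-fold (adjusted p = 0.00416). Npc1, which exports cholesterol from lysosomes, and the endocytic receptor Cubn rose by an LFC of 1.11 and 1.03. Npc1 kept the call only without 8-cell replicate 3 (adjusted p otherwise 0.0548 to 0.0873), and Cubn only without 8-cell replicate 1 or 3. Without 8-cell replicate 1, 5 members of this list were higher.

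Cholesterol synthesis and uptake had 4 of 26 members higher (15.4%) and 1 lower (3.85%), against 6.86 and 8.16% of all genes tested (median LFC 0.06). Besides Stard4, the enzymes Mvd, Msmo1 and Cyp51 rose by an LFC of 1.04, 1.03 and 1.39, and Insig1, which holds back the pathway when sterol is plentiful, fell by 1.07 on the log2 scale. Mvd and Msmo1 lost the call without 4-cell replicate 1 or 8-cell replicate 2, Insig1 without 4-cell replicate 1 or 8-cell replicate 3, and Cyp51 in all fits but that without 8-cell replicate 2. Without 4-cell replicate 1, Stard4 was the sole member called.

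Few genes of protein synthesis and turnover passed the size limit, while 6.86% of all genes tested were called higher and 8.16% lower. Of 87 ribosomal protein genes 84 had a positive LFC (median 0.38), but none was called higher, and the median was 0.08 under quantile normalization. The single call was a fall of the muscle paralog Rpl3l (LFC -1.21, adjusted p = 0.0203), lost without 4-cell replicate 1 or 2 or 8-cell replicate 2. Among 36 proteasome subunits 32 had a positive LFC (median 0.42) and 1 was called. Psmb3 rose from 14.24, 14.24 and 14.25 to 15.43, 15.62 and 15.30 (2.31-fold, adjusted p = 0.00361). Of 55 initiation factors 2 were lower, and of 42 ribosome biogenesis genes 1 was higher, with medians of 0.12 and -0.01 (0 and -0.21 under quantile normalization). In the sodium pump and water channel list, which serves the later blastocyst cavity, 1 of 17 was higher and 1 lower. The water channel Aqp3 had an LFC of 0.50 and the pump subunit Atp1b1 one of -0.68.

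In the DNA methylation and Polycomb list 3 of 26 (11.5%) were higher and 4 (15.4%) lower, with a median LFC of 0. These small counts are not far from the 6.86 and 8.16% of all genes tested. Jarid2, a partner of the Polycomb complex that methylates histone H3, rose from 10.36, 10.32 and 10.64 to 11.90, 12.52 and 11.81 (3.1-fold, adjusted p = 0.00503). Ring1, a ubiquitin ligase of the other Polycomb complex, rose 2.35-fold (adjusted p = 0.00374), while 4 further components of that complex fell. These included Phc2, from 13.62, 13.68 and 13.54 to 12.64, 11.90 and 12.11, and Cbx2 and Cbx8, with LFC of -1.30 and -1.46. Bmi1, the last of them, fell by 1.02 on the log2 scale and lost the call without 4-cell replicate 1, 4-cell replicate 3 or 8-cell replicate 2. The DNA methyltransferase Dnmt3a was dim at the 4-cell stage and at least 1.7-fold higher, and Dnmt3b had an LFC of 0.97 (adjusted p = 0.00525).

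Few cell cycle regulators were called, 1 of 46 higher (2.17%) and 2 lower (4.35%), with a median LFC of 0.01. All genes tested had 6.86% higher and 8.16% lower. Rb1, the retinoblastoma protein that restrains entry into S phase, fell from 8.47, 8.61 and 8.78 to 7.29, 7.28 and 7.57 (2.36-fold, adjusted p = 0.00402). The inhibitor Cdkn2c rose 2.38-fold (adjusted p = 0.00779). Cdkn2b had an LFC of -1.81 (adjusted p = 0.0488) and lost the call with the replicate block, without any 1 of the 4-cell arrays and without 8-cell replicate 2 (adjusted p 0.086 to 0.118). In the apoptosis and p53 list 2 of 31 (6.45%) were higher and 5 (16.1%) lower. Perp, a membrane protein of desmosomes and a target of p53, rose from 9.29, 8.18 and 8.70 to 11.62, 11.17 and 11.42 (6.42-fold, adjusted p = 0.00374), and Trp53 itself had an LFC of 0.95 (adjusted p = 0.0208). The 3 stress-response genes of the Gadd45 family all fell. Gadd45b went from 12.21, 12.40 and 12.12 to 10.78, 10.30 and 10.59 (3.22-fold, adjusted p = 0.00328), and Gadd45a and Gadd45g had LFC of -1.58 and -1.16. Without 4-cell replicate 1 the adjusted p of Gadd45a was 0.0503, and Gadd45g kept its call only without 4-cell replicate 3 or 8-cell replicate 2. Without 4-cell replicate 1 or 8-cell replicate 3, 3 members of the apoptosis list were lower.

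The levels at other untreated stages, scaled in the same way, place these changes on the course of development. The median log2 level of the 1079 genes called higher was 6.45 at 2-cell, 6.98 at 4-cell, 8.47 at 8-cell, 9.81 at morula and 9.92 at blastocyst. For the 1285 genes called lower it was 9.71, 8.08, 6.64, 5.60 and 5.80. Of the genes called higher, 855 of 1079 had a higher mean in morulae than in 8-cell embryos, and of those called lower 992 of 1285 had a lower one. These counts share the 8-cell arrays with the calls. At the earlier side, 662 of 1079 genes called higher stood lower in 2-cell than in 4-cell embryos, and 893 of 1285 genes called lower stood higher. Cdx2 had mean levels of 6.01 at 2-cell, 13.54 at morula and 14.45 at blastocyst. Gata6 stood at 7.08 at 2-cell and 14.15 at morula, and Btg4 at 13.76 and 3.97. The mean of Cdx2 was thus higher again after the 8-cell stage, whereas the morula mean of Gata6 lay within the range of its 8-cell arrays.

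**Figure D4:**
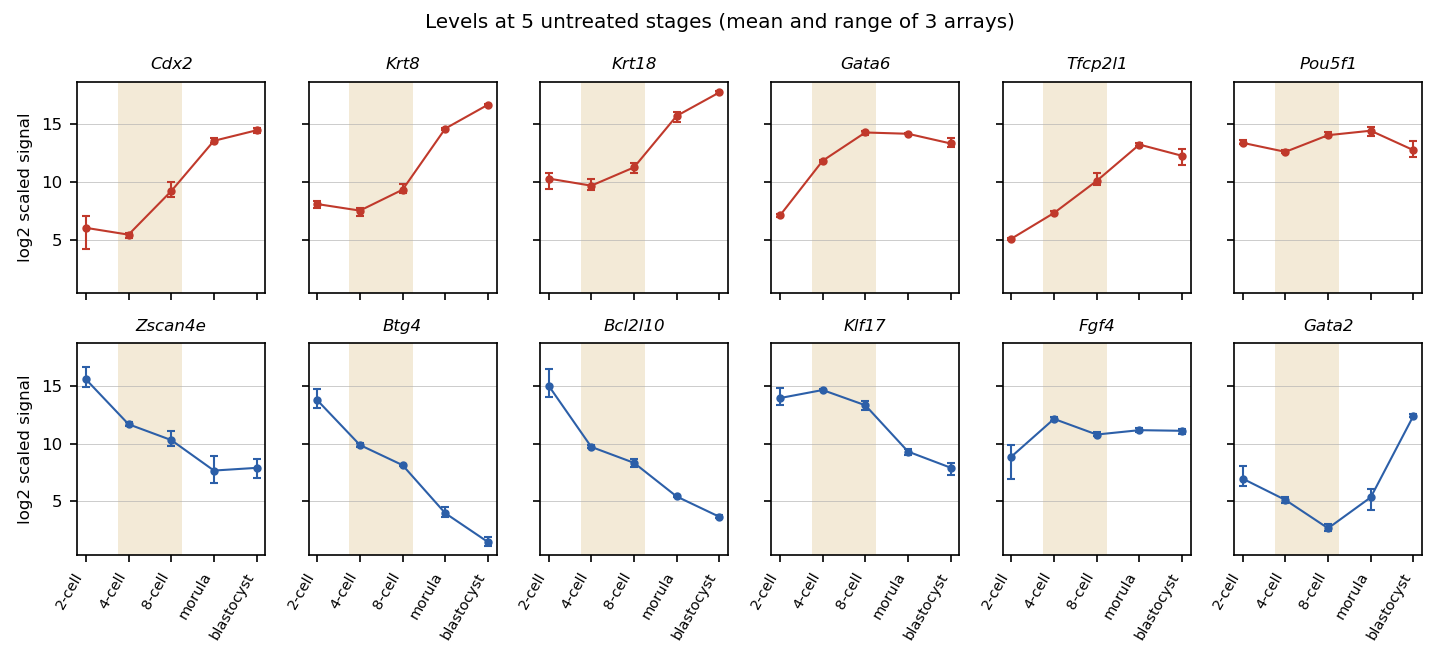
Log2 signal (y axis) of 12 list members at the untreated 2-cell, 4-cell, 8-cell, morula and blastocyst stages (x axis), as the mean of 3 arrays with bars from the lowest to the highest array. The shaded band marks the step from 4-cell to 8-cell. Cdx2, Krt8 and Krt18 stand higher still at morula, Gata6 is level from 8-cell to morula, and Zscan4e, Btg4, Bcl2l10 and Klf17 stand lower still.

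By the same rule, the step from 4-cell to 8-cell changed fewer genes than its neighbours. From 2-cell to 4-cell, 10171 of 17278 genes tested passed (58.9%), 5302 of them higher at the later stage. From 8-cell to morula, 5186 of 16053 passed (32.3%), 2739 of them higher. The first of these steps shares the 4-cell arrays and the second the 8-cell arrays with the comparison described here, and the numbers of genes tested differ. No test compared the 3 steps. The median SE of the LFC was 0.313 for the earlier step and 0.181 for the later one.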

How the data were processed

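RNA from pools of 100 embryos was amplified, labelled with Cy3 and hybridized to Agilent SurePrint G3 mouse arrays. The authors deposited the scanner output of each array, with a processed signal intensity per spot that is background-subtracted but not scaled between arrays. The submitters' notes name Agilent Feature Extraction 9.5.1.1, and the file headers 10.7.1.1. The authors also deposited a table of log2 values of the same arrays, normalized and filled in by them. It holds 19143 probes and was used as an alternative.

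Here log2 intensity was set relative to the 75th percentile of each array over all probes other than controls, and a common constant was added back. Spots of a probe were averaged without outlier spots. Of 55681 probes, 27318 were named by accession, 3527 by symbol and 553 by synonym through RefSeq tables, and 24283 were left unnamed. A probe was kept if it was positive and significant on all 3 arrays of at least 1 stage, and a gene was represented by its brightest probe over the 6 arrays. The software gives a surrogate for signals near background. A gene not well above background on any array of the dimmer stage has a bound, which sets the brighter stage's mean against the lowest signal among well-measured probes of each dim array, or the dim probe's own signal if that was higher. Stages were compared with limma 3.58.1 in R 4.3.3 (lmFit, eBayes, Benjamini-Hochberg), and a gene was called at an LFC of at least 1 in size with an adjusted p below 0.05. Without the size limit 5627 genes passed, and 7435 had an unadjusted p below 0.05.

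The 12 largest rises and the 12 largest falls by fitted LFC were named among called genes whose arrays did not overlap and that were well above background on all 3 arrays of the brighter stage, leaving out predicted or clone symbols. 1 of these rises and a few list members are not reported here, though they are included in the counts. Other genes were named from lists by role. The members, lists and tests were chosen with earlier results of these data known. Lists were described by counts and medians without a test. Replicate numbers coincide with 3 slides, each holding 1 array of every untreated stage. Deviations of same-numbered 4-cell and 8-cell arrays from their stage means correlated at 0.189, 0.182 and 0.127. Since number and slide coincide, a shared slide and a pairing of samples cannot be told apart. A fit with the replicate as a block was an alternative. Other alternatives were the scaling, normexp background correction with an offset of 50, the probe filter, the choice of probe, the spread taken from 24 untreated arrays and leaving out each array.

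On simulated data for 15740 genes with 200 changed, the fit recovered 71.2% of changes at an LFC of 1.5, 88.1% at 2 and 86.6% at 3, and called 7 unchanged genes. The simulated noise was independent between arrays, with a common SD for both stages, no slide effect and no floor near background. The real arrays differ in these respects, so the figures check the fit and do not carry over to the calls. Arrays give no read depth, and 3 arrays a stage limit the precision. No genome was used, so probes were not placed on it.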

Additional observations from a re-analysis of the deposited data

How the results depend on the processing

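The replicate number as a block gave 2392 called genes (1102 higher, 1290 lower), and 2477 with all 24 untreated arrays in that fit. Among the 149 called genes that are named or in a list, the block on the 6 arrays ended the calls of Lifr, Cdkn2b and Zscan4a. It ended no other call among them. With 1 array left out, which leaves 2 arrays in a stage, 1870 to 2446 genes were called, 839 to 1234 of them higher and 955 to 1400 lower. The share of higher genes was 42.8 to 50.9%, with 49.9% without 4-cell replicate 1, and 93 to 126 list members were called. Of the 149, 98 kept the call in all 6 such fits.

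The balance between the directions differed between settings. With the 75th percentile taken over probes positive and significant on all 6 arrays, 38.2% of calls were higher (898 higher, 1452 lower), and with the authors' table, which holds fewer probes and shifts the median LFC to 0.141, 57.2% were higher (748 higher, 559 lower, 1307 in all), against 45.6% in the report. It was 43.2% with quantile normalization, 45.9% with smooth quantile normalization and 45.7% with scaling to a median. Quantile normalization called 2347 genes, and 2253 of the 2364 calls were kept.

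Normexp correction adds a constant to all signals, so differences shrink by construction, most of all in dim genes. It called 916 genes (459 higher, 457 lower, 50.1% higher) and 71 list members. It kept 899 of the 2364 calls and lost 1465, though 1629 of the 2364 were well above background on all 6 arrays. Genes bright on every array therefore lost the call as well. Of the 24 genes with the largest changes, 11 fell under the size limit there (Akr1c14, Ankrd34c, Atp10b, Ebf1, Il31, Itih3, Pdzk1ip1, Prrx2, Rbks, Tpsg1 and Zdhhc11), with the sign unchanged. Without a minimum LFC 5627 genes passed. In the authors' table, where another probe stands for the gene, the LFC of Nanog was -0.13 and that of Usp17la 0.09, opposite to the report, and that of Gdf3 was 0.64. Signal over background is a further limit, as 139 of the called genes were dim on all 6 arrays.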

Other observations

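Further gene families, chosen after their values were seen, are given as counts with no test. They stand beside shares of 6.86% higher and 8.16% lower over all genes tested. Of 29 tested Pramel genes, expressed in germ cells and early embryos, 16 were lower and 2 higher, with a median LFC of -1.17. Pramel39 and Pramel17 fell by 2.53 and 2.48 on the log2 scale, whereas Pramel5 and Pramel6 rose by an LFC of 1.51 and 1.04. These genes lie in clusters of similar copies, so a probe may report more than 1 of them. Of 5 Obox genes 3 were lower, Obox7 among them at an LFC of -1.29. In the Rhox cluster of homeobox genes on the X chromosome, 4 of 18 were higher and none lower. Besides Rhox5 they were the copies Rhox3a, Rhox3f and Rhox3h, where a probe may also report more than 1 of them. Rhox5 stood at 7.77, 7.17 and 7.27 on the 4-cell arrays and at 10.53, 10.59 and 10.15 on the 8-cell arrays (LFC 3.02). Of 605 X-linked genes 38 were higher and 60 lower, 6.28 and 9.92%, near the 6.86 and 8.16% of all genes tested.

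Mitochondrial ribosomal proteins had 8 of 78 members higher (10.3%, against 6.86% of all genes tested) and none lower. A positive LFC was found in 69, and the median was 0.55. Mrpl24 had the largest LFC of them, 1.37. Of 10 beta-defensin genes 5 were lower and 1 higher, where 8.16 and 6.86% of all genes tested were.

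Probes without a current gene name were counted by their background flags alone, with no LFC and no test. Of 24283 such probes, 99 were well above background on all 3 8-cell arrays and on no 4-cell array, and 82 the other way round. Most of these were designed for long intergenic noncoding RNAs, of which 80 and 64 of 16246 had these patterns. Among 31398 probes with a gene name the counts were 198 and 177.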
